A study of Mus musculus with 12 samples.

Results

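Immediate early genes are transcribed within minutes of a stimulus, without new protein synthesis. The genes described here are the 10 transcription factor genes of that class that form the AP-1 and EGR groups: Fos, Fosb and Fosl2 for the FOS subunits, Jun, Junb and Jund for the JUN subunits, Atf3, and the zinc finger genes Egr1, Egr2 and Egr3. They were chosen by name, and all 10 were found among the 23949 genes of the table. All 10 were also among the 16277 genes whose mean reached 0.5 FPKM (fragments per kilobase of transcript, scaled to the reads of the library) that entered the tests. Fosb, at a mean of 0.584 FPKM over the 12 libraries, entered through a single library, E1, without which its mean was 0.445 FPKM.

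RNA of whole mouse cochleae was sequenced in 12 libraries in 4 groups of 3. The groups were WT mice at 5 months (E1, E3 and E4), Dusp1-/- mice at 5 months (E7, F18 and F19), WT mice at 8 months (F1, F10 and F12) and Dusp1-/- mice at 8 months (F5, F6 and F27), with no treatment on the labels and all on the mixed 129S2/SvPas:C57BL/6 background. Dusp1-/- is called KO below, libraries carry the animal codes of the labels, and no source used here explains the letters E and F. The WT libraries at 5 months are all E and those at 8 months are all F, and E7 is the E library among the KO ones, so letter and age cannot be told apart in WT.

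AP-1 is a dimer of a JUN protein with a FOS, ATF or another JUN protein, and EGR proteins bind GC-rich sites through zinc fingers. Their genes are switched on through MAP kinases, which phosphorylate the ternary complex factors that sit beside SRF on CArG boxes and, through nuclear kinases, CREB and ATF1 on cAMP response elements. JUN N-terminal kinases also phosphorylate c-Jun itself. DUSP1 is a nuclear phosphatase, itself the product of an immediate early gene, that removes the activating phosphates from p38, JNK and ERK, so a comparison of KO with WT asks whether transcripts at the end of those kinase pathways differ without it. In the nervous system Fos and Egr1 are classic activity markers, and in Schwann cells Egr2 drives the myelin genes.

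Dusp1 was the first gene read, because it is the gene that the labels say was knocked out. In WT at 5 months its level was 60.8 FPKM in E1, 47.6 in E3 and 29.5 in E4, and in the libraries labelled KO it was 61.9 in E7, 81.5 in F18 and 75.3 in F19. At 8 months it was 43.0, 38.3 and 38.6 FPKM in the WT libraries F1, F10 and F12, against 55.6, 73.7 and 57.1 in the libraries labelled KO, F5, F6 and F27. The groups did not overlap at either age, and the libraries labelled KO were the higher ones. Over both ages the difference on the scale of log2(FPKM + 0.5), used for every difference below, was 0.67 ± 0.16 (SE; limma p = 0.00185, adjusted p = 0.13 over all genes), and the exact two-sided permutation p within ages was 0.005, the smallest that this design can give. The level thus goes against the label. No source used here says which part of the gene the KO allele lacks, so a level over the whole gene does not check the labels, and every direction below rests on the labels as they stand.

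The cochlear identity of the libraries was checked with fixed markers. The 10 hair cell markers summed to 78.9 to 124 FPKM and 10 markers of the cochlear epithelium and lateral wall to 4241 to 6294, with none at 0 in all libraries. The libraries also held other tissues. The 15 neutrophil markers summed to 73.4 to 685 FPKM in WT at 5 months, 4163 to 23009 in KO at 5 months, 693 to 4636 in WT at 8 months and 900 to 16868 in KO at 8 months, with E7 and F5 on top and none of the markers at 0 in all libraries. B cell and macrophage markers went the same way at 5 months, with sums of 34.6 to 43.1 and 319 to 378 FPKM in WT and 56.7 to 169 and 409 to 667 in KO. Skeletal muscle markers were highest in E3 and F18, at 976 and 723 FPKM, and at 5.8 to 164 in the others. The level of Xist was above 1 FPKM in E4, F1, F6 and F27, so both sexes are present and the 3 KO libraries at 5 months are all from animals without Xist RNA. Read numbers are not in the files, so depth is unknown, and in bulk tissue fewer cells of a type and less RNA per cell cannot be told apart. The labels do not say whether animals of a group shared a litter, so p-values measure the spread between these animals only.

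The sequences just before the start of transcription are shown for the 5 genes on which the results below turn: Fos and Fosb, which stood far above all other libraries in E1, and Fosl2, Junb and Atf3, whose groups at 5 months did not overlap. They are the 250 bases before the start in the RefSeq annotation of build GRCm38.p6, each read 5′ to 3′ on the strand of its gene: chr12:85473640-85473889 (plus) for Fos, chr7:19310046-19310295 (minus) for Fosb, chr5:32136222-32136471 (plus) for Fosl2, chr8:84978749-84978998 (minus) for Junb and chr1:191183334-191183583 (minus) for Atf3. Capitals mark matches, on either strand, to the core of a cAMP response element (TGACG), an EGR site (GCGNGGGCG) or a TATA box (TATAAA).
Fos: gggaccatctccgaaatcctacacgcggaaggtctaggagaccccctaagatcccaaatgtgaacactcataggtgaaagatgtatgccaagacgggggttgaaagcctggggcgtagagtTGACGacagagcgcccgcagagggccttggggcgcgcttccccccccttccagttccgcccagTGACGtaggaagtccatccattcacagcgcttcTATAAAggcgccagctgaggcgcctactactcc
Fosb: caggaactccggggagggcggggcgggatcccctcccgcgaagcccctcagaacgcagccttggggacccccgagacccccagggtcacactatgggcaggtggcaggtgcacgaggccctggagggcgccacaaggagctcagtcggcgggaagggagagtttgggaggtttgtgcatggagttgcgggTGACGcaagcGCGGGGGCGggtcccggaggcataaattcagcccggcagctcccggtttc
Fosl2: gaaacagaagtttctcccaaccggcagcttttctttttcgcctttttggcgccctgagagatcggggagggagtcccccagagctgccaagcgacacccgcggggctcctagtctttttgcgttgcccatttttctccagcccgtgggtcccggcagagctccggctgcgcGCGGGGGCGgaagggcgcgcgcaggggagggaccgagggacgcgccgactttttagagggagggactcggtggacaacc
Junb: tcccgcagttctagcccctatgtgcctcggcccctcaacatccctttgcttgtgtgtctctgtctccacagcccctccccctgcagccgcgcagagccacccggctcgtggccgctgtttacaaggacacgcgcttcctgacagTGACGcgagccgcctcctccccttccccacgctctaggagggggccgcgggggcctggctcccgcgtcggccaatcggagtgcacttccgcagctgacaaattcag
Atf3: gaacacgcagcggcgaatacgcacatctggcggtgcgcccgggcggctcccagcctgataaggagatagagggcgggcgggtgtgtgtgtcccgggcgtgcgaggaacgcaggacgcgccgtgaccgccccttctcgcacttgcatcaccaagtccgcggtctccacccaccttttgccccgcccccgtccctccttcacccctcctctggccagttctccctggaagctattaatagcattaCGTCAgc

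In the Fos window the core TGACG stood at -129 to -125 and again at -66 to -62 from the start, with a TATA box at -33 to -28. Fosb had a core at -60 to -56 and an EGR site at -50 to -42, and Fosl2 had an EGR site at -79 to -71 and no core. Junb had a core at -106 to -102, and Atf3 had one on the opposite strand at -7 to -3. Entries were found for 8 of the 10 genes (all but Egr1 and Egr3). Of these 8, 5 had a core TGACG on either strand in at least 1 window (Fos, Fosb, Junb, Atf3 and Egr2), as did 17.8% of all 32851 windows of this length. The genes are counted once over all their windows and the shares per window. Egr2 had several windows, some of them overlapping, and so more places for a match. An EGR site was present in 2 of the 8 against 4.70% of all windows, a TATA box in 1 against 12.4% and a CArG box in 1, Egr2, against 1.47%. The full response element TGACGTCA, which contains the core on both strands, and the AP-1 site TGANTCA were in none of the 8, and in 1.55 and 6.75% of all windows. These matches describe letters in a window, not bound sites.

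Expression was ordered by the median over the 12 libraries, which FPKM allow between genes because they are per length. Jund was the most abundant at a median of 58.2 FPKM, followed by Jun at 23.8, Egr1 at 18.3, Junb at 17.9 and Egr2 at 14.0. Fosl2 (6.46 FPKM), Egr3 (5.89), Fos (4.71) and Atf3 (4.23) lay lower, and Fosb was last at 0.413. The steps from Jund to Jun, from Egr2 to Fosl2 and from Atf3 to Fosb held in 12 of 12 libraries with ranges that did not overlap. The neighbours from Jun to Egr2, and those from Fosl2 to Atf3, overlapped in range, and their order held in 8 to 11 of the 12 libraries. All 3 JUN subunits thus had higher medians than all 3 FOS subunits.

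**Figure D1:**
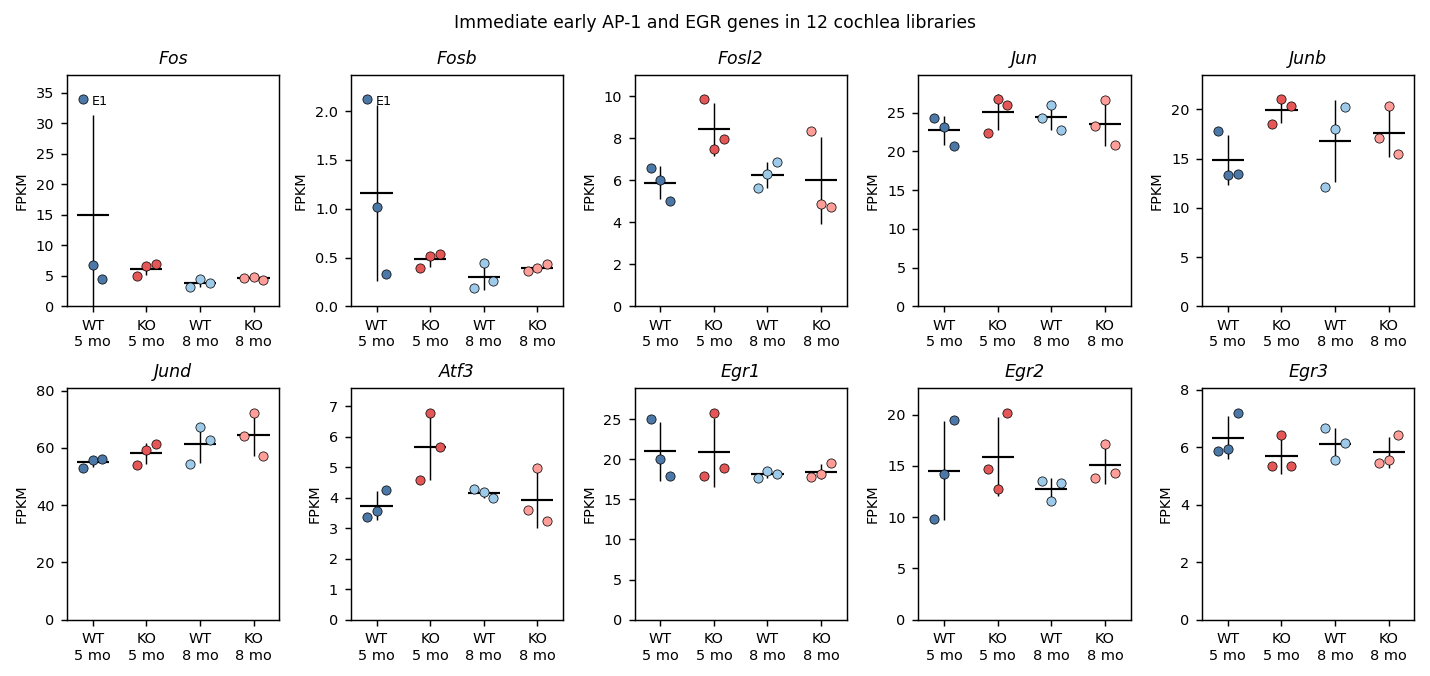
Level of each of the 10 genes (y axis, FPKM from 0) in the 3 libraries of each group (points), with the group mean (horizontal bar) and SD (vertical line, not drawn below 0). E1 lies alone at 33.9 FPKM for Fos and 2.12 for Fosb, and Fosl2, Junb and Atf3 are higher in all 3 KO libraries at 5 months than in the 3 WT ones.

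Fos encodes c-Fos, the prototype of the class. It lies at chr12:86814851-86818219 (plus strand, mm9, 4 exons). In WT at 5 months its level was 33.9 FPKM in E1, 6.76 in E3 and 4.46 in E4. In KO at 5 months it was 5.01 in E7, 6.67 in F18 and 6.86 in F19. At 8 months the WT libraries F1, F10 and F12 had 3.15, 4.46 and 3.79 FPKM, and the KO libraries F5, F6 and F27 had 4.67, 4.75 and 4.30. E1 was 4.94-fold above the next library, a gap reached by 0.491% of all genes tested, while the other 11 libraries lay between 3.15 and 6.86. The group means were 15 ± 16.4 (SD, n = 3), 6.18 ± 1.02, 3.8 ± 0.657 and 4.57 ± 0.237 FPKM in the order WT and KO at 5 months, WT and KO at 8 months.

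Fosb encodes FosB and, by alternative splicing, the stable form ΔFosB, which a gene-level value does not separate. It lies at chr7:19888045-19895394 (minus strand, mm9). Its level was 2.12, 1.02 and 0.334 FPKM in E1, E3 and E4, and 0.393, 0.519 and 0.534 in E7, F18 and F19. At 8 months it was 0.187, 0.447 and 0.263 in WT and 0.367, 0.395 and 0.431 in KO, in the same library order as above. E1 was again on top, 2.07-fold above E3, the library next to it. Fos was the most variable of the 10 genes, with a coefficient of variation over the 12 libraries of 114%, against a median of 13.0% for all genes tested. That of Fosb was 89.8%. Fosb entered the tests through E1, its highest library, and lies near the filter, so its value is a description.

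Some other activity-linked genes were on top in E1 and others were not. Of a fixed list of 42 further immediate early genes, 8 were highest in E1, 6 were lowest there, and 12 were highest in F18. The family gene Egr4, below the level tested, was at 1.09 FPKM in E1 and at most 0.136 elsewhere. Npas4, a neuronal factor of the same class and also below the level tested, was at 1.48 FPKM in E1 and at most 0.793 in the others. Dusp5, an ERK phosphatase, was at 10.9 FPKM in E1 and at most 4.75 elsewhere, and the orphan receptor gene Nr4a3 was at 5.36 against at most 2.68. These genes were picked out after their values were seen. Of all genes tested, 214 (1.31%) were at least 2-fold higher in E1 than in any other library, among them Fos. Fosb is also among the 214, but it entered the tests through E1, so its place there is a description. In the other 11 libraries that number was 10 to 113, with none of the 10 among them. E1 also had the highest sum of 11 brainstem and glia markers, 381 FPKM against 184 to 300 in the other libraries. Over the 12 libraries r between Fos and these markers was 0.55 (rho -0.19), and -0.40 without E1. The part of such tissue in the level of Fos was not tested.

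Fosl2 encodes FRA-2, a FOS protein without a transactivation domain of the c-Fos kind that is prominent in bone and immune cells. It lies at chr5:32438845-32460212 (plus strand, mm9). Its level was 6.61, 6.04 and 5.03 FPKM in E1, E3 and E4 and 9.86, 7.49 and 7.95 in E7, F18 and F19. At 8 months it was 5.63, 6.31 and 6.87 in F1, F10 and F12 and 8.37, 4.89 and 4.74 in F5, F6 and F27. The KO libraries were all above the WT ones at 5 months, whereas at 8 months the KO libraries held both the highest value, F5, and the lowest ones. E7 and F5, the highest libraries for Fosl2, were also the highest for neutrophil markers, at 23009 and 16868 FPKM. Over the 12 libraries Pearson's r between log2 Fosl2 and the log2 neutrophil sum was 0.83 (Spearman's rho 0.69), and 0.68 without E7 and F5. For Junb r was 0.55 (rho 0.41), and 0.65 without E7 and F5. For Egr3 it was -0.64 (rho -0.53), and -0.49 without them. The remaining genes of the 10 lay between -0.20 (Fosb) and 0.24 (Atf3), and between -0.10 (Fosb) and 0.48 (Jun) without E7 and F5. All of these values are a description over libraries that share groups.

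Jun and Jund were among the steadier genes of the table. Jun, which encodes c-Jun, lies at chr4:94715727-94718913 (minus strand, mm9, a single exon). Its level was 24.3, 23.1 and 20.7 FPKM in E1, E3 and E4, 22.4, 26.7 and 26 in E7, F18 and F19, 24.3, 26 and 22.8 in F1, F10 and F12, and 23.3, 26.6 and 20.8 in F5, F6 and F27. Its coefficient of variation was 8.81%, which 76.1% of all genes tested reached. Jund encodes JunD, the JUN protein of resting cells. It lies at chr8:73221638-73224515 (plus strand, mm9), and its level was 53.1, 55.8 and 56.0 FPKM in E1, E3 and E4 and 54.0, 59.2 and 61.2 in E7, F18 and F19. At 8 months Jund was at 54.4, 67.4 and 62.6 FPKM in F1, F10 and F12 and at 64.1, 72.3 and 57.3 in F5, F6 and F27, and the groups overlapped at both ages.

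Junb encodes JunB, which often opposes c-Jun, and lies at chr8:87500808-87502647 (minus strand, mm9, a single exon). Its level was 17.8, 13.3 and 13.4 FPKM in E1, E3 and E4 and 18.5, 21.0 and 20.3 in E7, F18 and F19. At 8 months it was 12.1, 18 and 20.2 in F1, F10 and F12 and 17.1, 20.3 and 15.5 in F5, F6 and F27. The KO libraries at 5 months were above the WT ones by a narrow gap, since E1 at 17.8 lay close to E7 at 18.5, and at 8 months the groups overlapped.

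Atf3 encodes a stress-induced repressor that dimerizes with JUN proteins and is a marker of axon injury in sensory neurons. It lies at chr1:192994176-193007212 (minus strand, mm9). Its level was 3.36, 3.58 and 4.27 FPKM in E1, E3 and E4 and 4.57, 6.79 and 5.68 in E7, F18 and F19. At 8 months it was 4.28, 4.18 and 3.98 in WT and 3.59, 4.99 and 3.24 in KO. At 5 months every KO library was above every WT library, and at 8 months the KO libraries lay on both sides of the WT ones. F18 was the highest and E7, which had most neutrophil RNA, the lowest of the 3 KO libraries at 5 months.

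Among the zinc finger genes, Egr1 encodes the activity-dependent factor EGR1 (also Zif268). Its level was 25.0, 20.0 and 17.9 FPKM in E1, E3 and E4, 17.9, 25.8 and 18.9 in E7, F18 and F19, 17.6, 18.5 and 18.2 in F1, F10 and F12, and 17.8, 18.1 and 19.5 in F5, F6 and F27. F18 and E1 stood above the other 10 libraries, which lay between 17.6 and 20.0. F18 was also the highest library for the orphan receptor gene Nr4a1, picked out after its values were seen, at 46.2 FPKM, with E1 second at 30.6 and the others at 9.75 to 16.7.

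Egr2, also called Krox20, lies at chr10:67000617-67004936 (plus strand, mm9) and overlaps a microRNA gene, Mir7669, on the other strand. Its level was 9.87, 14.2 and 19.5 FPKM in E1, E3 and E4 and 14.7, 12.8 and 20.2 in E7, F18 and F19. At 8 months it was 13.5, 11.6 and 13.3 in F1, F10 and F12 and 13.8, 17.1 and 14.3 in F5, F6 and F27, so that all KO libraries were above the WT ones, with F5 at 13.8 next to F1 at 13.5. E4 and F19, the highest libraries for Egr2, also had the highest sums of 9 Schwann cell myelin markers, 2316 and 2186 FPKM against 1506 to 1941 in the other libraries. Over the 12 libraries r between log2 Egr2 and the log2 myelin sum was 0.73 (rho 0.73), and 0.33 without E4 and F19.

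Egr3, an EGR gene needed for muscle spindles, lies at chr14:70477252-70482420 (plus strand, mm9). Its level was 5.86, 5.93 and 7.20 FPKM in E1, E3 and E4, 5.33, 6.41 and 5.33 in E7, F18 and F19, 6.67, 5.55 and 6.13 in F1, F10 and F12, and 5.46, 5.56 and 6.44 in F5, F6 and F27. The groups overlapped at both ages, and the highest library, E4, was 1.35-fold above the lowest.

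**Figure D2:**
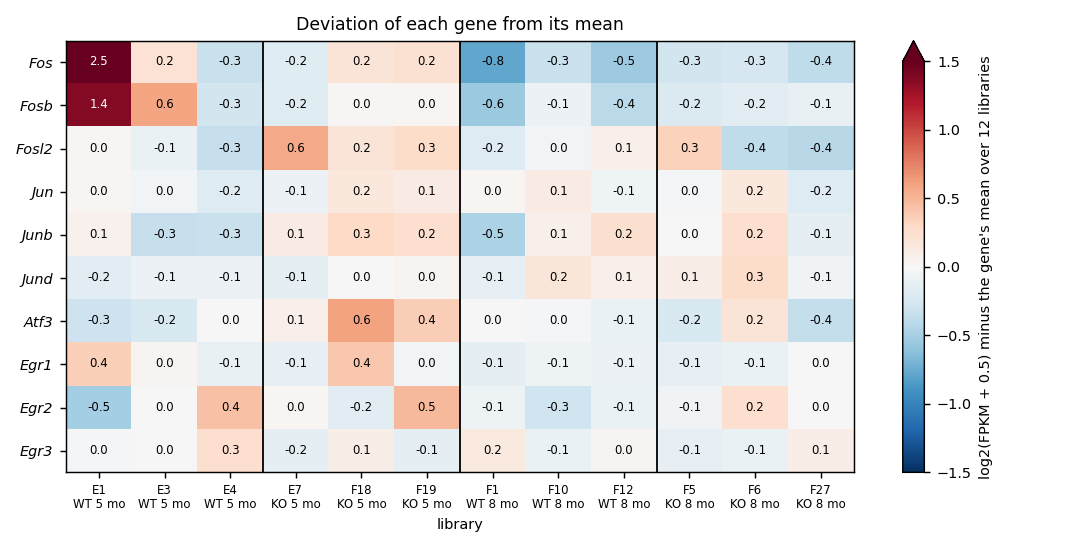
Deviation of each gene from its own mean over the 12 libraries (cell values and colour, log2 scale, colour ends at 1.5), with libraries in columns and groups divided by lines. The 2 darkest cells are Fos and Fosb in E1, and Atf3, Fosl2 and Egr2 vary most among the rest.

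The comparison of KO with WT at 5 months asks whether loss of the phosphatase left AP-1 and EGR transcripts at another level. No gene of the 10 passed the test after adjustment over all genes (limma, adjusted p from 0.196 to 0.977), where 0.0676% of all genes tested did. At an unadjusted p under 0.05, 3 were higher in KO (8.23% of all genes) and none lower (9.92% of all genes). These 3 were Atf3, Fosl2 and Junb, and the same 3 were those whose KO libraries were all above the WT ones (11.3% of all genes), for which the exact permutation p is 0.1, the smallest that 3 against 3 allows. The median difference of the 10 genes was 0.11, against -0.0272 for all genes tested.

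Atf3 had a mean of 3.74 ± 0.475 FPKM (SD, n = 3) in WT and 5.68 ± 1.11 in KO at 5 months, a log2 difference of 0.53 ± 0.17 (SE; limma adjusted p = 0.196). Fosl2 had 5.89 ± 0.805 and 8.43 ± 1.26 FPKM, a difference of 0.48 ± 0.20 (limma adjusted p = 0.243). Junb had 14.8 ± 2.58 and 20.0 ± 1.29 FPKM, a difference of 0.43 ± 0.18 (limma adjusted p = 0.257). The groups compared also differed in neutrophil RNA, whose 15 markers were all higher in KO at an unadjusted p under 0.05 with a median log2 difference of 4.89. In a fit that held the neutrophil marker level as a term, an alternative added with the data in view, the difference was -0.17 for Fosl2, 0.39 for Junb and 0.91 for Atf3. The mean log2 level of the markers at 5 months was at most 3.46 in WT (E3) and at least 5.84 in KO (F18). The groups thus share no level, and these values rest on a slope fitted over all 4 groups. Without E7 and F5, likewise added with the data in view, the difference was 0.37, 0.48 and 0.67 for the same genes. With the code letter as a term it was 0.70, 0.33 and 0.26, and with sex as a term 0.34, 0.34 and 0.59. Only KO at 5 months holds both letters, so the fit with the letter compares E7 alone with the WT libraries of that age. When each library was left out in turn the unadjusted limma p reached 0.123 for Fosl2 (without E7), 0.122 for Junb (without E3) and 0.0409 for Atf3 (without F18).

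For Fos the difference at 5 months was -0.70 ± 0.55 with a 95% interval from -1.93 to 0.53, and it was 0.14 without E1. Fosb entered the tests through E1, a library of one of the groups compared, so its difference of -0.61, or -0.20 without E1, is given as a description and not as a test. Jun, Jund, Egr1, Egr2 and Egr3 differed by 0.14, 0.08, -0.01, 0.15 and -0.14, with intervals that all held 0. The interval was narrowest for Jund, from -0.14 to 0.30, and for Jun, from -0.09 to 0.37.

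**Figure D3:**
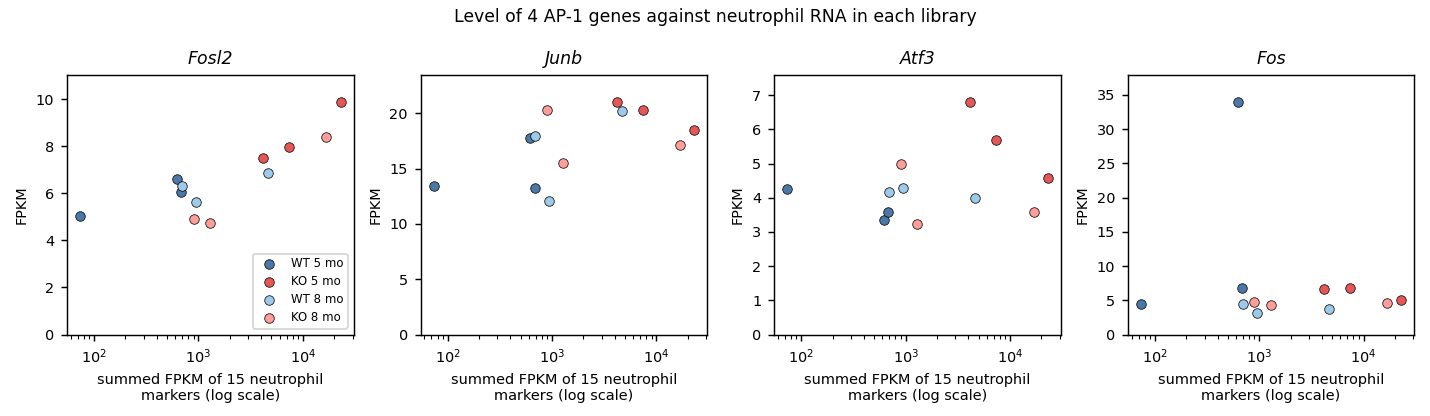
Level of Fosl2, Junb, Atf3 and Fos (y axis, FPKM from 0) against the summed FPKM of 15 neutrophil markers (x axis, log scale), 1 point per library, coloured by group. Fosl2 is highest in the 2 libraries with the largest sums, E7 at 23009 and F5 at 16868 FPKM, while Atf3 is highest in F18, at a sum of 4163.

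At 8 months no gene of the 10 differed after adjustment (limma, adjusted p from 0.979 to 0.999, with 0.0123% of all genes called) and none at an unadjusted p under 0.05, where 5.17% of all genes were in either direction. The median difference of the 10 was 0.05, against -0.00401 for all genes. Egr2 was the single gene whose groups did not overlap (10.3% of all genes in either direction), with means of 12.8 ± 1.07 FPKM in WT and 15.1 ± 1.79 in KO and a difference of 0.22 ± 0.23 (limma adjusted p = 0.979). The differences of Atf3, Fosl2 and Junb were -0.09 ± 0.17, -0.10 ± 0.20 and 0.09 ± 0.18. Their intervals ran from -0.45 to 0.28 for Atf3, from -0.54 to 0.34 for Fosl2 and from -0.31 to 0.50 for Junb. With each library left out in turn the values lay between -0.25 and 0.03 for Atf3, -0.34 and 0.04 for Fosl2 and -0.12 and 0.24 for Junb. The lowest value of Fosl2, reached without F5, was at an unadjusted limma p of 0.0394. The neutrophil sums, at 900 to 16868 FPKM in KO and 693 to 4636 in WT, overlapped at this age.

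Over both ages none of the 10 passed, either after adjustment (limma, 0.0799% of all genes called) or at an unadjusted p under 0.05 (17.4% of all genes in either direction). The smallest p were those of Junb, 0.26 ± 0.13 (limma adjusted p = 0.324, exact permutation p within ages 0.115), and Atf3, 0.22 ± 0.12 (limma adjusted p = 0.346, exact permutation p 0.18). Without E7 the value of Atf3 was 0.29 at an unadjusted limma p of 0.0289, and without E1 that of Junb was 0.33 at 0.0307. Fos differed by -0.22 ± 0.39, a value that was 0.20 without E1. The median of the 10 genes was 0.06 against -0.0157 for all genes.

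The difference of KO against WT was then compared between the ages. No gene of the 10 passed after adjustment (limma, 0.00614% of all genes called). Atf3 was the single gene at an unadjusted p under 0.05, where 1.66% of all genes were lower: its difference of KO against WT at 8 months minus that at 5 months was -0.62 ± 0.23 (limma adjusted p = 0.876). Without F18 the value of Atf3 was -0.49 with an unadjusted limma p of 0.0596. For Fosl2 the change between ages was -0.58 ± 0.28 (limma, adjusted p = 0.876). It was -0.83 without F5, at an unadjusted limma p of 0.00193, and -0.04 with the neutrophil marker level as a term. For Fos the change was 0.95 ± 0.78, or 0.11 without E1.

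**Figure D4:**
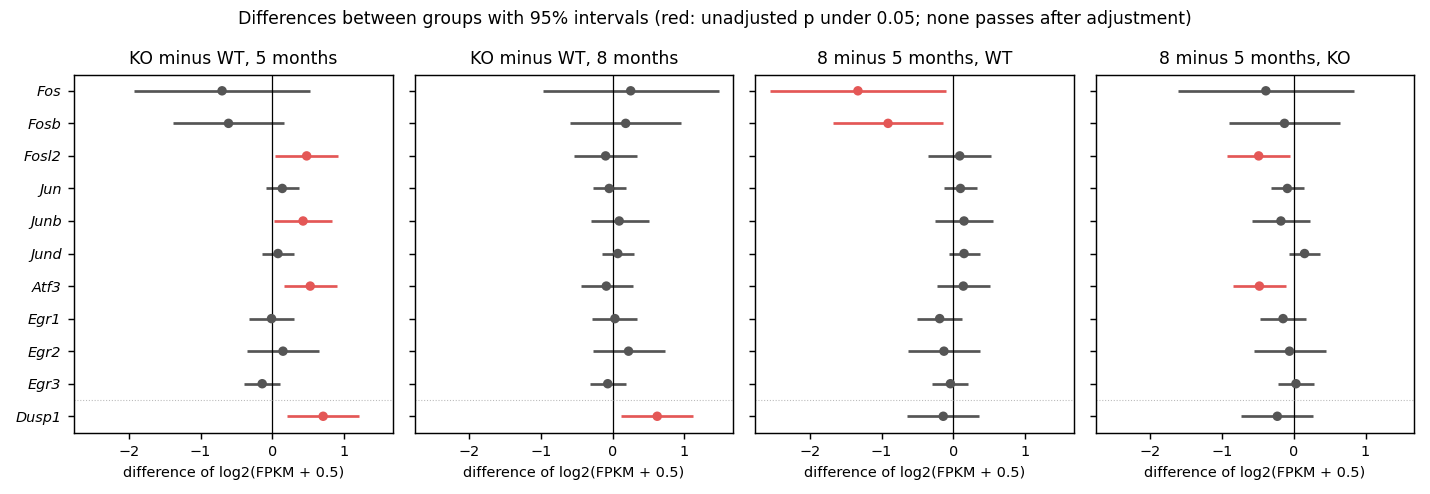
Difference of mean log2(FPKM + 0.5) (points) with 95% intervals from limma (lines) for the 10 genes and Dusp1, in 4 comparisons. Intervals in red exclude 0 at an unadjusted p under 0.05, which at 5 months are Fosl2, Junb, Atf3 and Dusp1, and none of the genes passes after adjustment over all genes. Fosb entered the tests through E1, so its intervals are a description.

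Age was compared within each genotype, with the same groups as above, so that the comparisons share libraries and are not independent of them. In WT no gene of the 10 passed after adjustment (limma, 0.0123% of all genes called). At an unadjusted p under 0.05, where 3.54% of all genes were lower, Fos was in the lower direction at 8 months, with a difference of -1.33 ± 0.55 (limma adjusted p = 0.631). E1 carried much of this value: without it the difference was -0.49, at an unadjusted limma p of 0.0327, and that p reached 0.0938 without F1. Fosb, which entered the tests through E1, is left out of that count, and its difference of -0.91, or -0.51 without E1, is a description. E4, at 4.46 FPKM of Fos, was level with F10 at 4.46.

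In KO none of the 10 passed either (limma, 0% of all genes called). At an unadjusted p under 0.05, where 3.75% of all genes were lower, Fosl2 and Atf3 were in the lower direction at 8 months, with differences of -0.49 ± 0.20 (limma adjusted p = 0.361) and -0.48 ± 0.17 (limma adjusted p = 0.342). The groups overlapped for both genes. Without F27 the unadjusted limma p of Fosl2 was 0.121, and without F5 its difference was -0.74, while that of Atf3 was -0.35 without F18, at an unadjusted limma p of 0.068. With the neutrophil marker level as a term, likewise added with the data in view, the values were -0.23 for Fosl2 and -0.63 for Atf3. Fos was lower in all 3 KO libraries at 8 months, at 4.30 to 4.75 FPKM, than in the 3 at 5 months, at 5.01 to 6.86, with a difference of -0.39 ± 0.55 (limma adjusted p = 0.782), and 4.59% of all genes were without overlap in that direction.

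Further genes of the family were read from lists of fixed members, and none was called in any of the 6 comparisons. Of 16 other AP-1 and EGR family genes 14 were tested, with a median of 0.15 for KO against WT at 5 months and -0.01 at 8 months. The most abundant were Atf4, the factor of the integrated stress response, at a mean of 117 FPKM, Maf at 64.3 and Mafg at 23.0. Maff and Mafk, small MAF proteins that lack a transactivation domain, were the 2 of 14 at an unadjusted p under 0.05 at 5 months, both higher in KO as were 8.23% of all genes, by 0.67 ± 0.19 (limma adjusted p = 0.181) and 0.41 ± 0.09 (limma adjusted p = 0.146). At 8 months they were at 0.23 ± 0.19 and 0.03 ± 0.09. Fosl1, the remaining FOS gene, was listed at 0 to 0.112 FPKM and was not tested.

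The factors that act upstream of these genes came next. Of 11 SRF, ternary complex and CREB genes none was at an unadjusted p under 0.05 for KO against WT at either age, with medians of -0.01 and 0.01. Atf1, the coactivator gene Ep300 and Srf were the most abundant, at means of 18.9, 15.6 and 12.1 FPKM, and Srf differed by 0.13 ± 0.08 at 5 months. Elk3, a ternary complex factor, and Mkl1, an actin-regulated SRF coactivator, had the smallest p over both ages, with differences of -0.13 ± 0.07 and 0.26 ± 0.15.

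Of 17 MAP kinase and nuclear kinase genes, 4 were higher and 3 lower in KO at 5 months at an unadjusted p under 0.05, beside 8.23 and 9.92% of all genes, and none was called. At 8 months 3 were lower and none higher at that threshold, beside 5.17% of all genes in either direction. Over both ages 4 were higher and 4 lower, beside 17.4% of all genes in either direction. Mapk3, which encodes ERK1, was the most abundant at a mean of 176 FPKM and differed by -0.01 ± 0.09. Mapk10, the gene of the neuronal JNK3, had a difference of -0.40 ± 0.09 at 5 months (limma adjusted p = 0.147) and of -0.22 ± 0.09 at 8 months (limma adjusted p = 0.963). The 10 neuron markers, all below 0 at 5 months, had a median of -0.34 there, and their part in the value of Mapk10 was not tested. Mapk8, the gene of JNK1, was at -0.27 ± 0.09 and -0.21 ± 0.09, and Mapkapk2, the gene of the p38 effector MK2, at 0.42 ± 0.11 and 0.07 ± 0.11.

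Of 42 other immediate early genes 41 were tested. At 5 months 13 of the 41, Dusp1 among them, were higher in KO at an unadjusted p under 0.05 and none lower. Of all genes 8.23 and 9.92% were, and the median of the list was 0.19. At 8 months 1 was higher, Dusp1 itself, beside 2.21% of all genes. The median was 0.00 to the second decimal, and no gene of the list was called at either age. The 15 neutrophil markers, with a median of 4.89, and 9 of 10 B cell markers, with a median of 2.15, were higher at that threshold in the same comparison at 5 months. Of the 42, 8 were highest in E7 (Dusp2, Ier5, Btg1, Btg2, Zfp36, Zfp36l2, Myc and Mcl1), the library with the largest neutrophil sum. F18 held the highest value of 12, F6 of 9 and E1 of 8. F5, next to E7 in neutrophil sum, held the highest value of 0 and the lowest of 8. The part of neutrophils and B cells in the counts was not tested. Ctgf, Zfp36l1 and Rhob were the most abundant, at means of 142, 67.6 and 63.1 FPKM, and differed by 0.15 ± 0.22, -0.11 ± 0.06 and 0.03 ± 0.11 at 5 months. Zfp36, which encodes the mRNA-destabilizing protein tristetraprolin, was at 24.9 ± 2.59 FPKM in WT and 32.5 ± 2.37 in KO, a difference of 0.38 ± 0.10 (limma adjusted p = 0.163), and at 0.14 ± 0.10 at 8 months. In WT at 5 months the summed level of the 42 genes, Dusp1 among them, was 884 to 948 FPKM and in KO it was 978 to 1063, without overlap, while at 8 months the sums of 877 to 923 and 906 to 1091 FPKM overlapped.

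Genes known as AP-1 targets were higher in KO at 5 months at an unadjusted p under 0.05 in 5 of the 16 tested and lower in none, with a median of 0.27, and in 2 of 16 at 8 months with a median of 0.06, beside 8.23 and 2.21% of all genes higher at those ages. Hmox1, the heme-degrading heme oxygenase 1, was at 12.2 ± 1.91 FPKM in WT and 27 ± 11.1 in KO at 5 months, a difference of 1.05 ± 0.30 (limma adjusted p = 0.179). Plaur, the urokinase receptor gene, was at 2.01 ± 0.413 and 9.73 ± 5.95 FPKM, a difference of 1.89 ± 0.52 (limma adjusted p = 0.174). Both are also expressed by myeloid cells, and the neutrophil sums that moved with these groups are those given above, whose part was not tested. The bone matrix genes Spp1 and Dmp1 and the growth factor gene Vegfa, the most abundant of the list, differed by 0.06 ± 0.12, 0.05 ± 0.17 and 0.32 ± 0.18.

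Of 12 EGR target genes tested, 2 were higher at 5 months at an unadjusted p under 0.05, beside 8.23% of all genes, with a median of -0.10 for the list. These were the growth factor genes Tgfb1 (0.78 ± 0.32, limma adjusted p = 0.243) and Pdgfb (0.31 ± 0.12, limma adjusted p = 0.243). Myelin genes of the list, targets of Egr2, had values below 0: Mbp and Pmp22 were at -0.34 ± 0.17 and -0.09 ± 0.14. Heat shock genes, a sign of tissue handling, were not called. Of 10, 1 was lower at 5 months at an unadjusted p under 0.05 (9.92% of all genes) and none at 8 months. The medians were 0.06 and 0.10, and at 8 months 9 of the 10 were above 0, beside 48.3% of all genes. Hspa8 and Hsp90aa1 differed by -0.05 ± 0.10 and -0.18 ± 0.08 at 5 months. Hspb1 and Hspa1b, the genes of the list with the smallest p over both ages, were at 0.24 ± 0.10 and 0.40 ± 0.16 over both ages. They were the 2 of 10 at an unadjusted p under 0.05 there, beside 17.4% of all genes in either direction.

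The 10 genes did not move as a block across the 12 libraries. Over their 45 pairs Pearson's r of the log2 values ran from -0.60 to 0.95 with a median of 0.09, or 0.12 without E1. Fos and Fosb had the highest r, 0.95 (rho 0.85), which was 0.83 without E1, and Fos and Egr1 had 0.74 (rho 0.58), or 0.60 without E1. Atf3 went with Jun at 0.63 (rho 0.55), and Fosl2 and Egr3 had the lowest r, -0.60 (rho -0.67). The libraries share groups, sex and tissue make-up, so these values are a description.

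Outside the 10, the genes most like their mean log2 level over the 12 libraries were Dusp5 (r = 0.90, rho 0.83), the small nucleolar RNA gene Snora30 (0.87) and Nr4a3 (0.84), of 15212 genes that reached a mean of 1 FPKM. They were followed by Gfod1, Fancm, Col25a1, Snrk, Acap3, 2810403A07Rik and Kbtbd11 at r of 0.76 to 0.79. Without E1 and F18, the libraries farthest from the median, r was 0.82 for Dusp5, 0.72 for Snora30 and 0.44 for Nr4a3. For the genes from Gfod1 to Kbtbd11 r without these libraries lay between 0.25 (Snrk) and 0.67 (2810403A07Rik). In E1 the mean of the 10 stood 0.33 above its average, and at -0.07 without Fos and Fosb, so its height there came from those genes. The level of Snora30 ran from 0 to 14 FPKM. Dusp5, a phosphatase of nuclear ERK that is itself induced by ERK, was at 10.9, 2.79 and 2.12 FPKM in E1, E3 and E4 and 2.98, 3.88 and 4.75 in E7, F18 and F19. At 8 months Dusp5 was at 2.00, 3.04 and 3.44 FPKM in WT and 2.24, 3.28 and 2.54 in KO, with overlap between the genotypes at both ages.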

How the data were processed

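Members and gene lists were chosen with earlier results of these data known. The authors made stranded polyA libraries, aligned reads to mm9 with TopHat2 2.0.10 and computed FPKM with Cufflinks 2.2.1, per the labels, whose processing notes also name FastQC 0.10.1, Bowtie 1.0.0 and SAMtools 0.1.19. The FPKM table deposited by the authors had lost many decimal points. They were restored by placing the points of each group's 3 values so that their mean equals the authors' group FPKM (relative tolerance 2e-05), which gave 1 placing for 95802 of 95804 gene and group pairs, changed 55.3% of the values and left 23949 of 23951 genes. The library sums are 501193 to 583700 FPKM. No source used here gives the depth, and between libraries FPKM were left as deposited. The authors' fold changes, p-values and gene set reports were not used.

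Genes whose mean reached 0.5 FPKM (16277) entered 1 limma 3.58.1 fit (R 4.3.3) of log2(FPKM + 0.5) over the 4 groups with a variance trend, from which 6 contrasts were read. P-values were adjusted by the Benjamini-Hochberg method over all genes tested and called under 0.05. Fold differences on this scale understate those of low genes. Exact two-sided permutation tests used the 3 against 3 splits of an age (smallest p 0.1) or the 400 splits within both ages. The scripts were tested on simulated data. Tables and figures used Python 3.11.15, NumPy 2.4.6, SciPy 1.17.1, pandas 2.3.3 and Matplotlib 3.10.9. Named genes are the 10 members, Dusp1, in each list without cell type markers the 3 tested genes of highest mean FPKM and the 2 of smallest p over both ages, and the 10 genes most correlated with the members' mean, and others are said to be picked after their values were seen. Some genes that this rule names are not reported here. Of the list genes, Ly6g, Adgre1 and Ahsp are not analysed here. Promoter windows and motifs come from RefSeq tables (GRCm38.p6), and gene positions from the deposited mm9 annotation.

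Alternatives, 23 in all, were a pseudocount of 0.1 or 1, genes kept at a mean above 0 or of 1, quantile or median ratio scaling, no trend, a fit of only the groups compared, array weights, a term for the code letter or for sex (Xist above 1 FPKM), and the loss of each library in turn. Another 2 were added with the data in view: a term for the neutrophil marker level, and the loss of E7 and F5 together.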

Additional observations from a re-analysis of the deposited data

How the results depend on the processing

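None of the 10 genes was called in any of the 6 comparisons under any of the 23 planned or 2 added alternatives that could be run, by limma throughout. The compared groups alone could not be fitted for the contrasts that use all 4 groups, and Fosb had no value with the filter at a mean of 1 FPKM. Under that filter, and so without Fosb, the median of the other genes was 0.14 for KO against WT at 5 months, 0.03 at 8 months, 0.09 for age in WT and -0.15 for age in KO. No paired analysis was possible because the animals carry codes that the groups do not share. The median log2 change of the 10 genes moved by more than the spread between replicates in 4 cases. With the code letter as a covariate it was -0.02 for KO against WT at 5 months, 0.13 for the difference of that contrast between ages and -0.21 for 8 against 5 months in WT, and with sex as a covariate it was -0.10 for the difference between ages. The letter term rests on E7 against F18 and F19, since no other group holds both letters. The fit with it therefore cannot part letter from age in WT. With each library left out the median lay between -0.01 and 0.09 at 8 months, where it was lowest without F1. Single genes kept their uncalled state, and 27 of 1474 values moved by more than the spread between replicates.

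The number of all genes called by limma was small and varied: for KO against WT at 5 months it was 11, and 3 to 18 under the alternatives, at 8 months 2 and 2 to 6, over both ages 13 and 3 to 25, for the difference between ages 1 and 0 to 13, in WT by age 2 and 1 to 12, and in KO by age 0 and 0 to 4. The limit on all results is 3 libraries a group, and for Fosb also a level near the filter.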
